A study of Medicago ruthenica with 3 samples.

Results

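Degradome reads were compared between leaves of rewatered plants (RW) and leaves of plants at the end of a drought (DS) in Medicago ruthenica, a perennial forage legume. RW plants had gone through 15 days without water and were then watered again for 2 days, DS plants had gone through the same 15 days without water, and both were 4 weeks old when treatment began. Leaves of plants kept watered (CK) are given beside them and entered no test. The relative soil moisture in the labels was 20% in DS and 80% in CK. No genotype other than the wild species is labelled, while the authors describe the seed as a cultivar. There was 1 degradome library per condition, so no difference below has a replicate check and every test compares 2 libraries, not 2 conditions. Members were all transcripts with reads in RW or DS, 6087 of the 6912 transcripts in the deposited table, in 9699 of its 11390 entries, where an entry pairs a small RNA with a transcript. Of these, 1045 transcripts (17.2%) had at least 10 reads over the 2 libraries and were compared, while 5042 were too shallow.

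Degradome sequencing reads the 5′ ends of polyadenylated RNA that has no cap. When a microRNA (miRNA) guides a cut, the 3′ piece of the transcript keeps its poly(A) tail and has no cap, so the piece enters such a library, but other decay products do so too. In drought, abscisic acid (ABA) rises and acts through receptors, protein phosphatases 2C and protein kinases, stomata close, and chaperones, dehydrins and antioxidant enzymes are made. After water returns, stomata reopen, carbon fixation resumes, ABA is broken down or stored as its glucosyl ester, and growth starts again. The read number of a transcript depends on how much of it there is and on how fast it is cut or decapped, and these cannot be told apart here. Nor can a smaller number of cells of a type be told apart from less RNA in each cell.

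The table held 29617 reads in RW, 32719 in DS and 24790 in CK. The 1045 transcripts compared carried 75.7% of the RW reads and 79.1% of the DS reads, and their median depth was 19 reads. Leaf marker transcripts (Rubisco small subunit, Rubisco activase, antenna proteins and photosystem subunits) had 1125 reads in RW, 1907 in DS and 1076 in CK over 29 transcripts. Most of these reads belonged to Rubisco activase (RCA2). The other 28 transcripts had 399 reads in RW, 201 in DS and 427 in CK. The sum without RCA2, a leave-out chosen after seeing the data, was thus higher in RW than in DS. Root nodule markers had 0 reads in each library. The phloem marker SUC2 had 1 read in RW, 7 in DS and 3 in CK.

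For 3 of the transcripts called different below, the study had designed primers, which are the sequences of members at hand and are shown to identify the stretches of transcript meant. PUMP5 is named as a mitochondrial uncoupling protein, CP12-2 a regulator of the Calvin cycle and At2g30020 a protein phosphatase 2C. Each primer is written 5′ to 3′ in lower case, with no part singled out.
PUMP5 forward: ggttttgttgaaggtggtat
PUMP5 reverse: gctgaggaaccggagtagac
CP12-2 forward: accccaagcttctcttcaac
CP12-2 reverse: ctgggtcatcagcacatgtc
At2g30020 forward: cgccttctccttgttctt
At2g30020 reverse: gcctggtaggtcgtttcc

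Of the 1045 transcripts, 94 (9.00%) were higher and 77 (7.37%) lower in RW than in DS, together 16.4%. A transcript was called when its RPM (reads per 1000000 reads of the table) differed at least 2-fold and the adjusted p of a two-sided exact binomial test on its reads was under 0.05. Ratios below are RPM in RW over RPM in DS with exact 95% intervals, which cover counting error only. Where one library had 0 reads the fold was computed against a floor of 3 reads per library and is written "at least", which is not a confidence limit. A further 21 transcripts passed the p alone, the largest of them at 1.98-fold, and the called transcript with the smallest fold stood at 2.02. At an unadjusted p under 0.05 there were 326. The median log2 ratio of all 1045 was 0.07 with quartiles of -0.70 and 0.81. Without scaling to table totals it was -0.07, and the split of calls turned to 64 higher and 90 lower.

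The called transcripts carried large parts of each library. Those called higher held 7060 reads in RW, 2924 in DS and 4987 in CK, which was 23.8% of the table in RW, 8.94% in DS and 20.1% in CK. Those called lower held 1879 reads in RW, 8233 in DS and 3453 in CK, or 6.34% in RW, 25.2% in DS and 13.9% in CK. For both sets the share in CK lay between those in RW and DS. Depth set what could be called, since 10.8% of 527 transcripts with 10 to 19 reads were called and 37.1% of 70 with at least 100 reads.

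**Figure D1:**
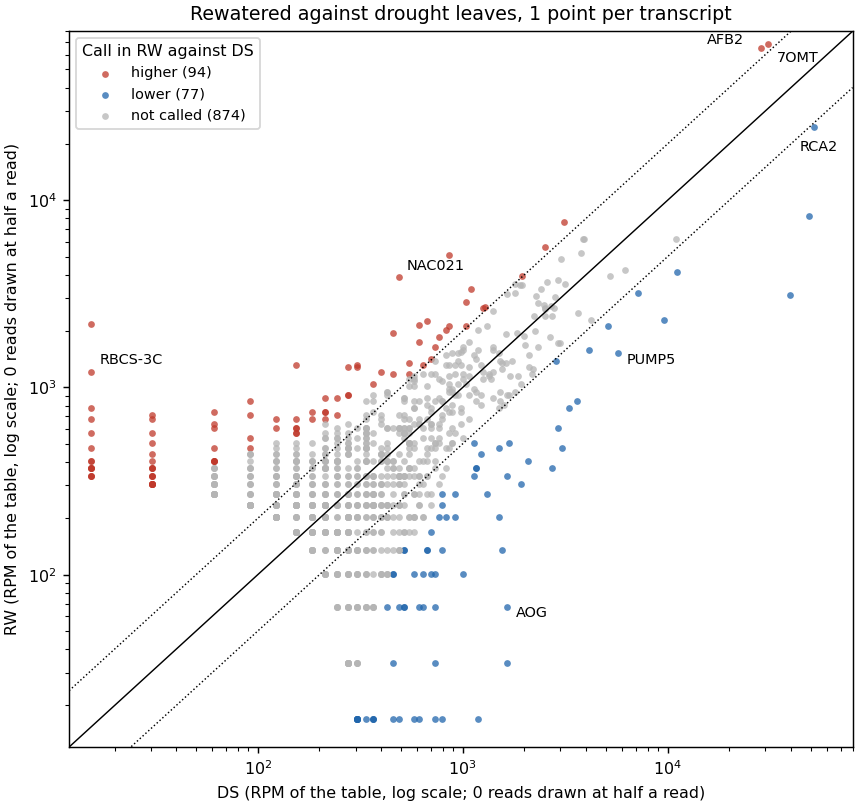
RPM of the table for each of the 1045 transcripts in RW (vertical axis) against DS (horizontal axis), both on log scales, with the diagonal solid, the 2-fold limits dotted and those called higher, called lower and not called in RW in separate colours. AFB2, 7OMT, NAC021 and RBCS-3C lie above the upper limit and RCA2, PUMP5 and AOG below the lower one.

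The 10 transcripts with the most reads held 19.2% of the RW reads, 24.2% of the DS reads and 25.0% of the CK reads. Of them 3 were called higher, 6 lower and 1 was not called. The O-methyltransferase 7OMT, of the family that methylates phenolics, had 2015 reads in RW, 1015 in DS and 882 in CK, a ratio of 2.19 (2.03 to 2.37), and fell to just under 2-fold without scaling. Rubisco activase (RCA2), which frees Rubisco of bound inhibitors, had 726 reads in RW, 1706 in DS and 649 in CK, a ratio of 0.470 (0.430 to 0.513, adjusted exact p = 4.88e-68). All 7 RCA2 entries with reads in RW or DS were lower in RW. Entries of a transcript come from the same library and may share reads, so entry counts here and below are not independent support. The plastid protein ycf20 had 226 reads in RW, 102 in DS and 281 in CK. The auxin receptor AFB2, described with auxin signalling below, was the other named member and was called higher.

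The remaining 5 called members of this set carry no named protein. TRINITY_DN22811_c0_g2 had 245 reads in RW, 1597 in DS and 1191 in CK, and TRINITY_DN18905_c0_g3 had 68 in RW, 314 in DS and 423 in CK. In both of these DS stood near or below CK and RW was the lowest library. TRINITY_DN22919_c0_g2 had 92 reads in RW, 1298 in DS and 93 in CK, and TRINITY_DN21405_c0_g1 had 95 in RW, 236 in DS and 23 in CK, so that DS was the high library. TRINITY_DN25057_c1_g3, which belongs to the same assembly cluster as RCA2, had 122 reads in RW, 362 in DS and 142 in CK. How reads that match several transcripts were counted is not given in the sources used here, so values of near-identical transcripts are uncertain.

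**Figure D2:**
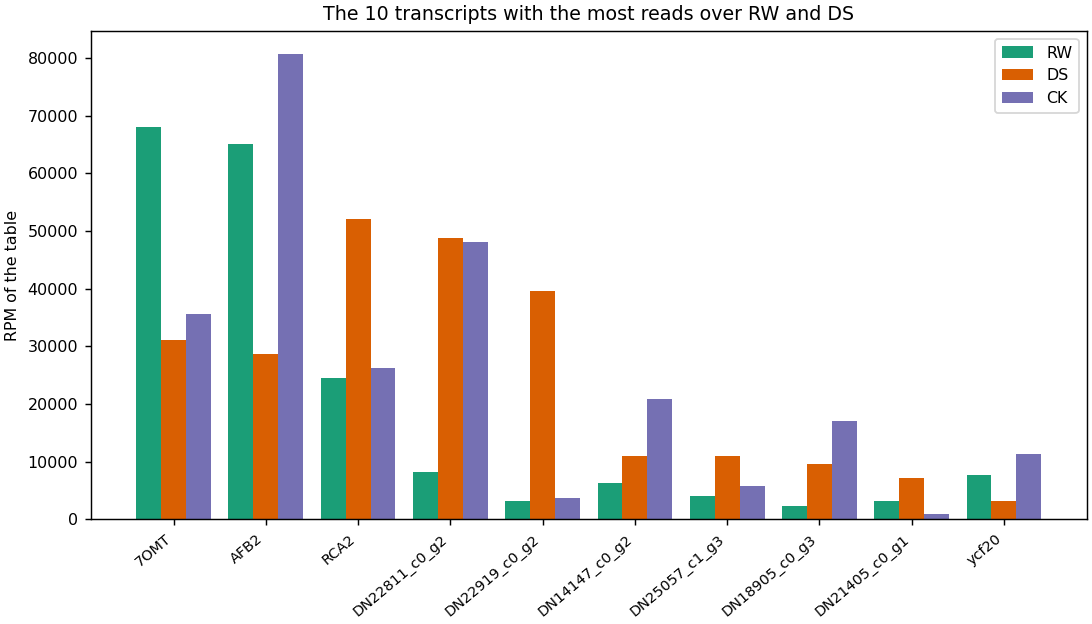
RPM of the table in RW, DS and CK for the 10 transcripts with the most reads over RW and DS, as bars that start at 0. 7OMT, AFB2 and ycf20 are higher in RW than in DS and the other 7 are lower, TRINITY_DN14147_c0_g2 among them at 0.563 without being called.

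Functions were then read from 30 lists matched on annotation words, which held 648 of the 1045 transcripts and 109 of the calls. In 13 lists more members were called higher than lower. Lists with a median log2 ratio well above that of all transcripts were the conserved miRNA targets (0.68), antioxidant enzymes (0.52), auxin signalling (0.47) and cell wall proteins (0.43). Those well below it were respiration and mitochondrial carriers (-1.05), circadian clock and light signalling (-0.62), ABA and protein phosphatases 2C (-0.50) and dehydration proteins (-0.43). None of these medians was tested, and some depended on the transcripts kept. With a minimum of 5 reads the cell wall median was 0.15 (log2) under that of all transcripts, the ABA median equalled it, and that of respiration differed from it by -0.16. The shares in brackets below are to be read against the 9.00% of all transcripts called higher and the 7.37% called lower.

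**Figure D3:**
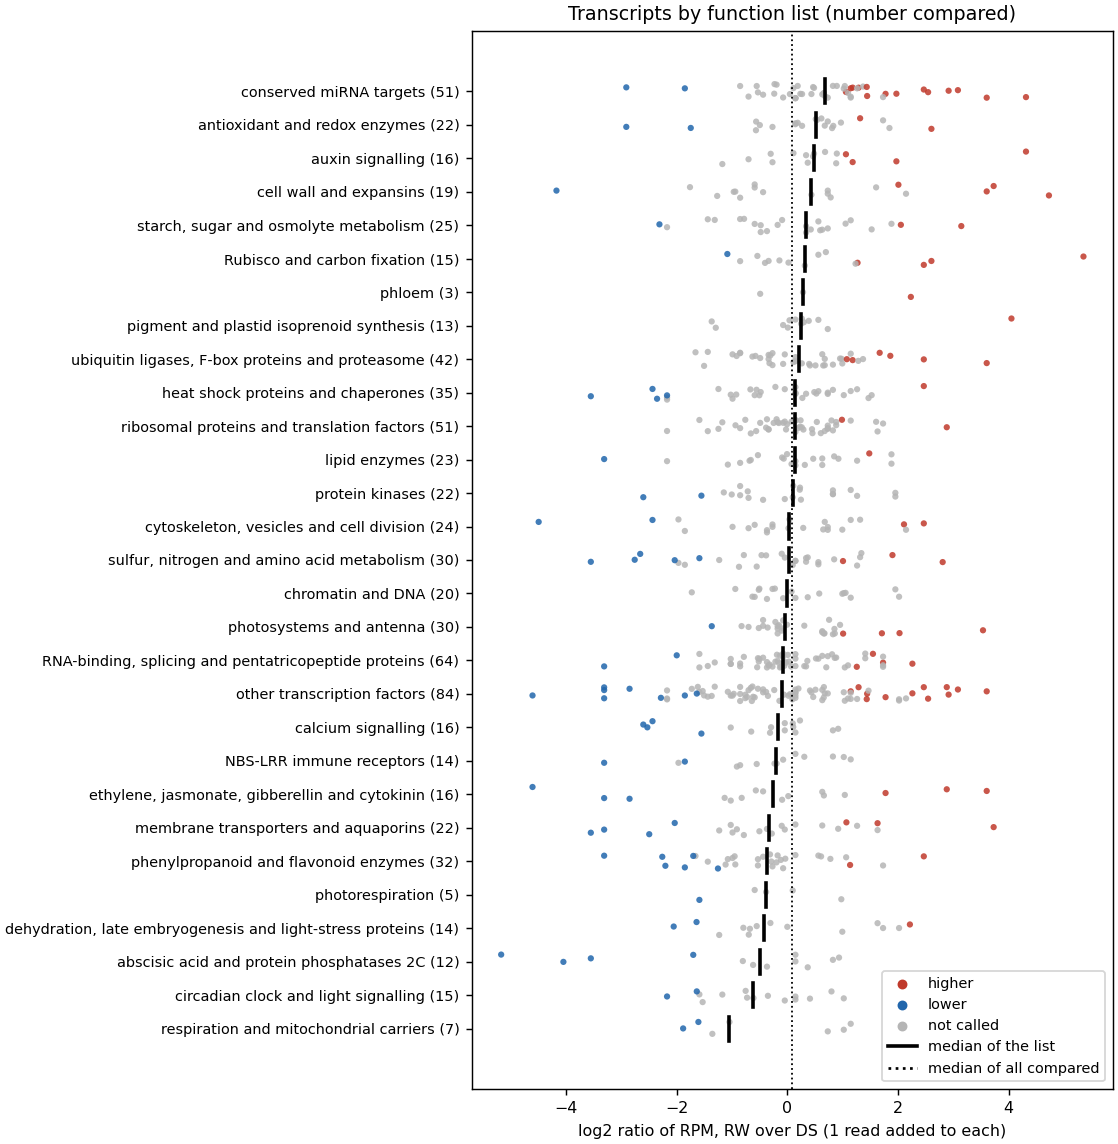
Log2 ratio of RPM in RW over DS (1 read added to each) for the members compared of each function list with at least 3 of them, a point per transcript, with the median of the list and, as a line, the median of all 1045 transcripts at 0.07. Called members are coloured by direction, and among the conserved miRNA targets 14 points are called higher and 2 lower.

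Transcripts of light harvesting were called about as often as transcripts in general. In the list of photosystems and antenna 4 of 30 members were higher (13.3%) and 1 lower (3.33%), with a median of -0.04. AB80, a chlorophyll-binding antenna protein of photosystem II, had 20 reads in RW, 1 in DS and 6 in CK on TRINITY_DN22280_c0_g1, a ratio of 22.1 (3.53 to 916), and 58 in RW, 15 in DS and 26 in CK on TRINITY_DN19797_c1_g4. PSAH, a subunit of photosystem I, had 67 reads in RW, 22 in DS and 80 in CK, a ratio of 3.36 (2.05 to 5.72). For PSAH the CK value was above RW, whereas for AB80 it stood between the other libraries. LHCB4.1 was called higher with 39 reads in RW, 21 in DS and 35 in CK, a call that ended without scaling. The lower member, ycf68-1 (47 in RW, 136 in DS and 231 in CK), entered the list through its annotation as an ATP synthase subunit, while its symbol is that of a reading frame in the plastid ribosomal RNA operon.

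In Rubisco and carbon fixation 4 of 15 members were higher (26.7%) and RCA2 was the only lower one (6.67%), with a median of 0.31. RBCS-3C, a small subunit of Rubisco, had 36 reads in RW, 0 in DS and 4 in CK, at least 13.3-fold higher (adjusted exact p = 1.21e-10), all in 1 entry. Sedoheptulose-1,7-bisphosphatase, which regenerates the acceptor of carbon dioxide in the Calvin cycle, had 21 reads in RW, 3 in DS and 7 in CK, a ratio of 7.73 (2.31 to 40.5). Transketolase, of the same part of the cycle, had 14 in RW, 2 in DS and 2 in CK. CP12-2, which binds Calvin cycle enzymes in the dark, had 60 reads in RW, 27 in DS and 47 in CK, a ratio of 2.45 (1.53 to 4.02), with its 3 entries all higher. Of 13 members of pigment synthesis, the carotenoid cleavage dioxygenase CCD4 alone was called, with 14 reads in RW and 0 in DS and CK. The calls of CP12-2 and CCD4 ended with only the entry of most reads kept per transcript.

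The calls of glutamine synthetase, which builds ammonia into amino acids, differed by the form of the enzyme. GS2, the chloroplast form that takes up the ammonia of photorespiration, had 14 reads in RW, 49 in DS and 12 in CK, a ratio of 0.316 (0.161 to 0.581). GS1 had 26 reads in RW, 7 in DS and 16 in CK, a ratio of 4.10 (1.73 to 11.2), and a further cytosolic form, TRINITY_DN20323_c1_g1, had 117 in RW, 64 in DS and 56 in CK (2.02, a call that ended without scaling). The best protein match of GS1 is a nodule isozyme, while nodule markers had no reads. Ferredoxin-dependent glutamate synthase (GLU1) was not called, with 28 reads in RW, 29 in DS and 15 in CK.

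Of the 30 members of sulfur, nitrogen and amino acid metabolism, 3 were higher (10.0%) and 5 lower (16.7%). APR3, which reduces activated sulfate, had 11 reads in RW, 89 in DS and 17 in CK, a ratio of 0.137 (0.0658 to 0.256, adjusted exact p = 4.88e-13). Its 11 entries were all lower, but with the entry of most reads alone the call ended. SULTR3;1, a sulfate transporter, had 0 reads in RW, 12 in DS and 3 in CK, at least 3.62-fold lower. NPF6.4, of the nitrate and peptide transporter family, had 23 reads in RW, 108 in DS and 30 in CK. S-adenosylmethionine synthase (SAMS) and S-adenosylmethionine decarboxylase (SAMDC) make and use the same methyl donor, the decarboxylase for polyamines. They moved in opposite directions, SAMS with 18 reads in RW, 2 in DS and 3 in CK (ratio 9.94, 2.38 to 88.4) and SAMDC with 2 in RW, 20 in DS and 3 in CK (ratio 0.110, 0.0125 to 0.455).

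Members of the list of ABA and protein phosphatases 2C were lower or not called. Of 12 members, 0 were higher and 4 lower (33.3%). AOG is annotated as a glucosyltransferase that conjugates ABA for storage. It had 2 reads in RW, 54 in DS and 13 in CK, a ratio of 0.0409 (0.00483 to 0.155, adjusted exact p = 1.89e-11), and its 4 entries were all lower. The transcript with the symbol byr2 is annotated as MAPKKK18, a kinase induced by ABA in Arabidopsis, and had 0 reads in RW, 39 in DS and 0 in CK, at least 11.8-fold lower. Phosphatases 2C include the brakes on ABA signalling, but the list is not limited to these. The annotations of the 2 called phosphatases do not name ABA. At4g33920 had 0 reads in RW, 12 in DS and 3 in CK, and At2g30020 had 4 in RW, 17 in DS and 0 in CK, a call that ended when the number of mapped reads was used for scaling. PP2CA, a phosphatase of the core ABA pathway in Arabidopsis, had 14 reads in RW, 28 in DS and 2 in CK and was not called (ratio 0.552, 0.269 to 1.08).

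Calcium signalling had 4 of 16 members lower (25.0%) and 0 higher. CIPK25, a kinase activated by calcium sensors of the CBL family, had 14 reads in RW, 100 in DS and 38 in CK, a ratio of 0.155 (0.0816 to 0.272, adjusted exact p = 1.33e-13). CIPK11, of the same family, had 11 reads in RW, 38 in DS and 17 in CK. These kinases were also the 2 lower members (9.09%) among 22 in the protein kinase list, which leaves out byr2 because it stands in the ABA list, and of which 0 were higher. PBP1, a small calcium-binding protein that interacts with a kinase of auxin transport in Arabidopsis, had 9 reads in RW, 63 in DS and 4 in CK. A calmodulin had 3 in RW, 23 in DS and 3 in CK. For CIPK25 and CIPK11 CK stood between RW and DS, and for PBP1 and calmodulin it was near RW. CIPK6 and CPK32 were close to even in the 2 libraries, with ratios of 1.07 each. ACA12, a calcium-transporting ATPase, was not called, with 93 reads in RW, 54 in DS and 119 in CK. Its ratio of 1.90 (1.35 to 2.71) passed the adjusted p but lay under the 2-fold limit.

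Among 14 dehydration and light-stress proteins 1 was higher (7.14%) and 2 lower (14.3%). DHN3, a dehydrin, which shields membranes and proteins as cells dry, had 20 reads in RW, 4 in DS and 0 in CK, a ratio of 5.52 (1.85 to 22.2). An early light-inducible protein had 4 reads in RW, 22 in DS and 1 in CK, and the stress-associated zinc finger protein SAP3 had 10 in RW, 37 in DS and 9 in CK. The reads of DHN3 were spread over 4 entries, and its call ended with the entry of most reads alone. Another dehydrin with more reads, TRINITY_DN19327_c0_g1 (dehydrin b), was not called, with 38 reads in RW, 69 in DS and 5 in CK, a ratio of 0.608 (0.398 to 0.917). Of 35 heat shock proteins and chaperones 1 was higher (2.86%) and 4 lower (11.4%), with a median of 0.14. HSC-2, a cognate of HSP70, had 2 reads in RW, 17 in DS and 0 in CK. HSP70-16 had 0 reads in RW, 12 in DS and 0 in CK, a DnaJ homolog 2 in RW, 16 in DS and 2 in CK, and CRT3, a calreticulin of the endoplasmic reticulum, 2 in RW, 14 in DS and 3 in CK. These 4 had few reads in both RW and CK. The higher member, CCT2 of the cytosolic chaperonin, had 9 reads in RW, 1 in DS and 2 in CK and lost its call without scaling.

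Antioxidant enzymes were called about as often as all transcripts, with 2 of 22 members higher and 2 lower (9.09% each). SODCP, the chloroplast copper-zinc superoxide dismutase and a known target of miR398, had 2 reads in RW, 24 in DS and 9 in CK, a ratio of 0.0921 (0.0105 to 0.371). The cytosolic form SODCC (24 in RW, 22 in DS and 62 in CK) and the copper chaperone CCS (106 in RW, 103 in DS and 159 in CK), also known targets, were not called. A nucleoredoxin (At1g60420) was higher with 35 reads in RW, 15 in DS and 9 in CK, and a glyoxalase was lower with 6 in RW, 25 in DS and 6 in CK. PUMP5, of the carriers in the inner mitochondrial membrane, had 45 reads in RW, 187 in DS and 15 in CK, a ratio of 0.266 (0.188 to 0.370, adjusted exact p = 7.06e-17). Its 5 entries were all lower, and it was 1 of 2 lower members (28.6%) among 7 in respiration and mitochondrial carriers.

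The conserved miRNA targets were the list with the most calls in 1 direction. Here plant miRNAs are known to cut transcripts of transcription factors, auxin receptors, copper proteins and immune receptors. Of 51 compared, 14 were higher (27.5%) and 2 lower (3.92%). The called members belonged to several families. Among AP2-like factors, targets of miR172 that repress flowering, AP2 had 21 reads in RW, 1 in DS and 31 in CK, a ratio of 23.2 (3.73 to 959). This transcript, TRINITY_DN22322_c0_g1, has the symbol AP2 but is annotated as RAP2-7 isoform X2. RAP2-7 had 64 reads in RW, 20 in DS and 84 in CK on TRINITY_DN22709_c0_g1, all listed with miR172, and 39 in RW, 5 in DS and 60 in CK on TRINITY_DN22709_c0_g2, all listed with miR167. In these 3 transcripts CK was the highest library and DS the lowest. A second transcript with the symbol AP2, TRINITY_DN20294_c0_g3, was also higher, with 9 reads in RW, 1 in DS and 6 in CK. Here RW was highest in RPM. Of 4 AP2-like factors compared and listed with miR172, 3 were higher and 1 was not called. TRINITY_DN22709_c0_g2 is not among these 4.

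NAC021, a NAC factor cut by miR164 that is linked to auxin and lateral roots in Arabidopsis, had 115 reads in RW, 16 in DS and 34 in CK, a ratio of 7.94 (4.69 to 14.4, adjusted exact p = 7.05e-20). Of these, 112 reads in RW, 15 in DS and 34 in CK were listed with miR164. BHLH25, listed with miR2199, had 152 reads in RW, 28 in DS and 68 in CK, a ratio of 6.0 (3.99 to 9.32, adjusted exact p = 1.14e-22). For both, RW was the highest of the 3 libraries. SPL7, of the SPL factors, many of which miR156 holds back in the juvenile phase, had 22 reads in RW, 2 in DS and 8 in CK. In RW 20 of them were in an entry with miR156 that had 0 reads in DS and CK. Such a 0 covers 1 entry and not all entries of the miRNA family. On ARF8 (TRINITY_DN23120_c0_g2), 1 miR167 entry had 41 reads in RW and 0 in DS and CK. Another miR167 entry there had 0 in RW, 24 in DS and 24 in CK.

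GAM1, a name shared by transcripts matching MYB33 and MYB65 of gibberellin signalling, both targets of miR159, was higher on both transcripts compared. TRINITY_DN16207_c2_g1 had 85 reads in RW, 34 in DS and 75 in CK (ratio 2.76, 1.84 to 4.24), and TRINITY_DN16207_c1_g2 had 49 in RW, 24 in DS and 49 in CK. REV, a class III HD-ZIP factor of leaf polarity and target of miR166, was higher on TRINITY_DN24440_c0_g1 with 63 reads in RW, 28 in DS and 32 in CK. On TRINITY_DN24440_c0_g3 it had 183 in RW, 128 in DS and 190 in CK, a ratio of 1.58 (1.25 to 2.00) under the 2-fold limit. SCL6 with 33 reads in RW, 33 in DS and 28 in CK (target of miR171), TCP2 with 10 in RW, 8 in DS and 5 in CK (miR319) and GRF3 with 22 in RW, 29 in DS and 15 in CK (miR396) were not called. Among 4 growth-regulating factors listed with miR396, GRF4 alone was called. It was higher with 21 reads in RW, 8 in DS and 12 in CK, a ratio of 2.90 (1.23 to 7.57). DCL1, the enzyme that makes miRNAs and is itself cut through miR162, had 8 reads in RW, 2 in DS and 6 in CK, a ratio of 4.42 (0.882 to 42.7).

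Auxin signalling, which overlaps these targets, had 4 of 16 members higher (25.0%) and 0 lower. AFB2, an auxin receptor listed mainly with miR393, had 1927 reads in RW, 940 in DS and 1999 in CK. Its close relative TIR1 had 39 in RW, 40 in DS and 31 in CK, a ratio of 1.08 (0.675 to 1.72). ARF10, a factor cut through miR160, had 38 reads in RW, 10 in DS and 16 in CK, a ratio of 4.20 (2.05 to 9.45). Other targets of miR160 moved less, ARF17 with a ratio of 1.61 (1.24 to 2.10) and ARF18 with 1.38 (1.08 to 1.76). ARF8, a target of miR167, had 17 reads in RW, 0 in DS and 3 in CK on TRINITY_DN23120_c0_g1, at least 6.26-fold higher, and 41 in RW, 24 in DS and 24 in CK on TRINITY_DN23120_c0_g2, which was not called. ARF6 had 80 reads in RW, 42 in DS and 58 in CK (2.10, 1.43 to 3.13), a call that ended without scaling.

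Several factors of stress and hormone responses outside these targets were lower. MYC2, the central factor of jasmonate signalling, had 0 reads in RW, 26 in DS and 1 in CK, at least 7.84-fold lower (adjusted exact p = 1.69e-06), in 5 entries that were all lower. RAP2-4, an ethylene-responsive factor, had 1 read in RW, 15 in DS and 4 in CK, and ERF4 had 0 in RW, 10 in DS and 1 in CK. MYB44, a factor linked to stomatal closure in Arabidopsis, had 6 reads in RW, 27 in DS and 5 in CK, a ratio of 0.245 (0.0829 to 0.607). LHY, a morning factor of the circadian clock, had 8 reads in RW, 30 in DS and 1 in CK, and the time of day of sampling is not given in the labels used here. PMI1, which moves chloroplasts in response to light, had 3 reads in RW, 19 in DS and 1 in CK. PIF1 and COL16, of light signalling, were not called. The list of other transcription factors had 12 of 84 members higher (14.3%) and 8 lower (9.52%). It was matched on annotation words and also holds miRNA targets such as AP2, so these counts are not limited to factors outside the targets. The calls of MYC2, ERF4, MYB44 and LHY ended with the entry of most reads alone.

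**Figure D4:**
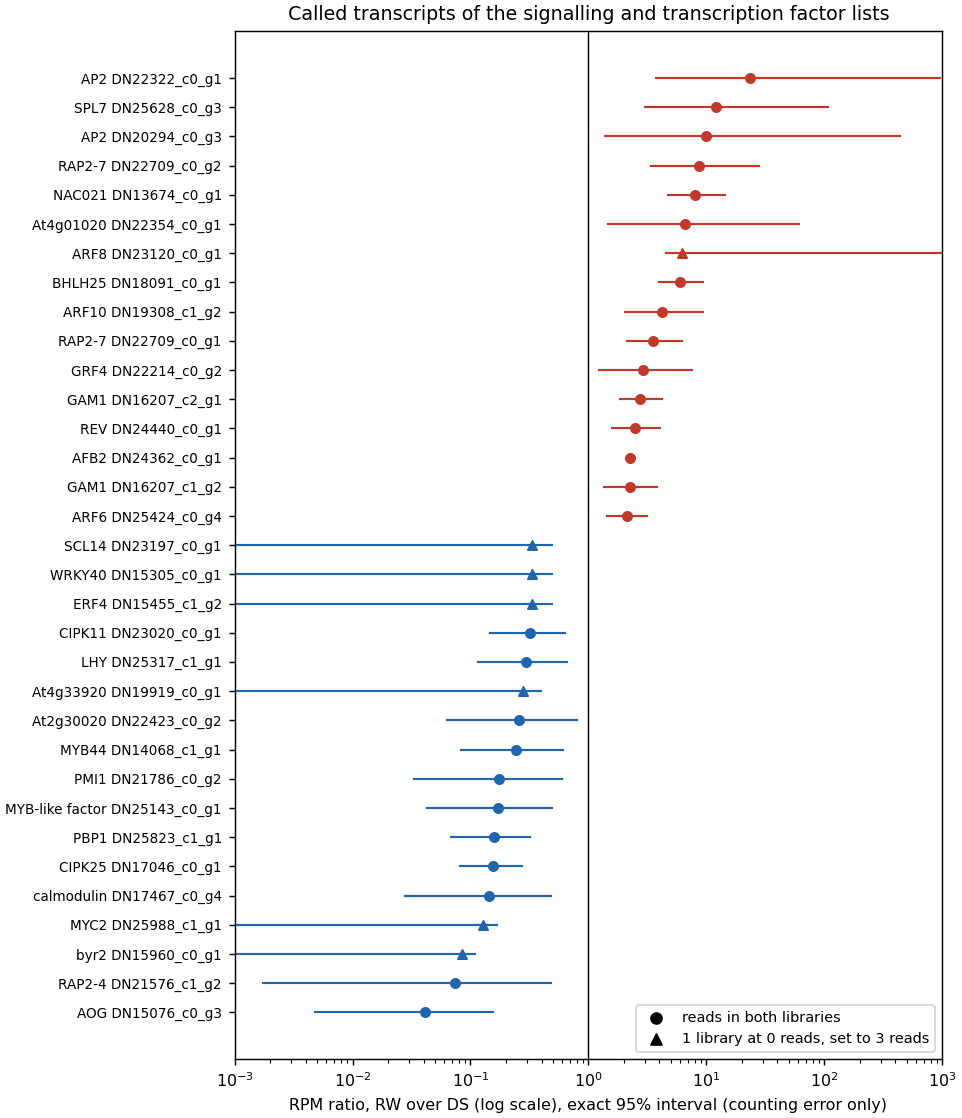
RPM ratio, RW over DS, with exact 95% intervals on a log axis, for the called transcripts of the ABA, calcium, auxin and other hormone, clock and transcription factor lists, higher ones in the upper part in red and lower ones below in blue. Triangles are transcripts with 0 reads in 1 library, drawn at the ratio against 3 reads, and intervals are drawn no further than the axis. AP2 at 23.2 and AOG at 0.0409 are the ends of the range.

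Several flavonoid glucosyltransferases were lower while 7OMT was higher. In the list of phenylpropanoid and flavonoid enzymes 2 of 32 members were higher (6.25%) and 6 lower (18.8%), with a median of -0.38. These enzymes attach sugars to flavonoids and related compounds. UGT73C6 had 18 reads in RW, 96 in DS and 13 in CK, a ratio of 0.207 (0.118 to 0.345, adjusted exact p = 7.24e-11). GmIF7GT1, named for a soybean isoflavone glucosyltransferase, had 12 in RW, 68 in DS and 20 in CK, with 6 of 7 entries lower. UGT73B4 had 63 reads in RW, 168 in DS and 47 in CK, a ratio of 0.414 (0.305 to 0.557). GmSGT3, of soyasaponin synthesis, had 5 in RW, 23 in DS and 17 in CK. For UGT73C6 and UGT73B4 RW stood near CK. OSCPSM, an amyrin synthase of triterpene synthesis, was higher with 9 reads in RW, 1 in DS and 1 in CK, a call that ended without scaling.

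The list of starch, sugar and osmolyte metabolism had 2 of 25 members higher (8.00%) and 1 lower (4.00%), no more than transcripts in general. BAM3, the plastid beta-amylase, had 3 reads in RW, 21 in DS and 3 in CK, a ratio of 0.158 (0.0301 to 0.529). DPE2, which handles maltose in the cytosol, had 15 in RW, 1 in DS and 14 in CK, a ratio of 16.6 (2.55 to 698). The H isozyme of glucan phosphorylase, also cytosolic, had 14 in RW, 3 in DS and 14 in CK, but its call ended without scaling. For DPE2 and the phosphorylase RW was level with CK in reads.

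Cell wall proteins had 4 of 19 members higher (21.1%) and 1 lower (5.26%). EXPA8, an expansin that loosens walls during cell growth, had 39 reads in RW, 10 in DS and 79 in CK, a ratio of 4.31 (2.11 to 9.68). GXM3, which methylates xylan, had 11 in RW, 0 in DS and 7 in CK, and EXL5 of the EXORDIUM family had 10 in RW, 0 in DS and 7 in CK. ASR3, annotated as a glycine-rich wall protein, had 23 reads in RW and 0 in DS and CK, at least 8.47-fold higher. Another glycine-rich wall protein, TRINITY_DN14837_c0_g2, had 0 in RW, 19 in DS and 4 in CK, at least 5.73-fold lower. So wall proteins of similar annotation stood at opposite ends. Of these calls, those of GXM3, EXL5 and the 2 glycine-rich proteins ended with the entry of most reads alone.

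Transporters had 3 of 22 members higher (13.6%) and 4 lower (18.2%). CNGC2, a cyclic nucleotide-gated calcium channel, had 11 reads in RW, 0 in DS and 3 in CK, and MTP4, of the metal tolerance family, 27 in RW, 9 in DS and 39 in CK. The proton pump PMA4 had 35 in RW, 18 in DS and 10 in CK, a call that ended without scaling. At3g47420, a glycerol-3-phosphate transporter, had 3 reads in RW, 24 in DS and 33 in CK, a ratio of 0.138 (0.0266 to 0.455), with CK above DS. WDL3, a microtubule-associated protein, had 0 reads in RW, 24 in DS and 3 in CK. SYP121, a syntaxin of guard cell channel traffic, had 2 in RW, 17 in DS and 1 in CK. RABB1C, a small GTPase of vesicle transport, was higher with 38 in RW, 9 in DS and 14 in CK. At5g58770, a dehydrodolichyl diphosphate synthase, had 1 read in RW, 24 in DS and 2 in CK.

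**Figure D5:**
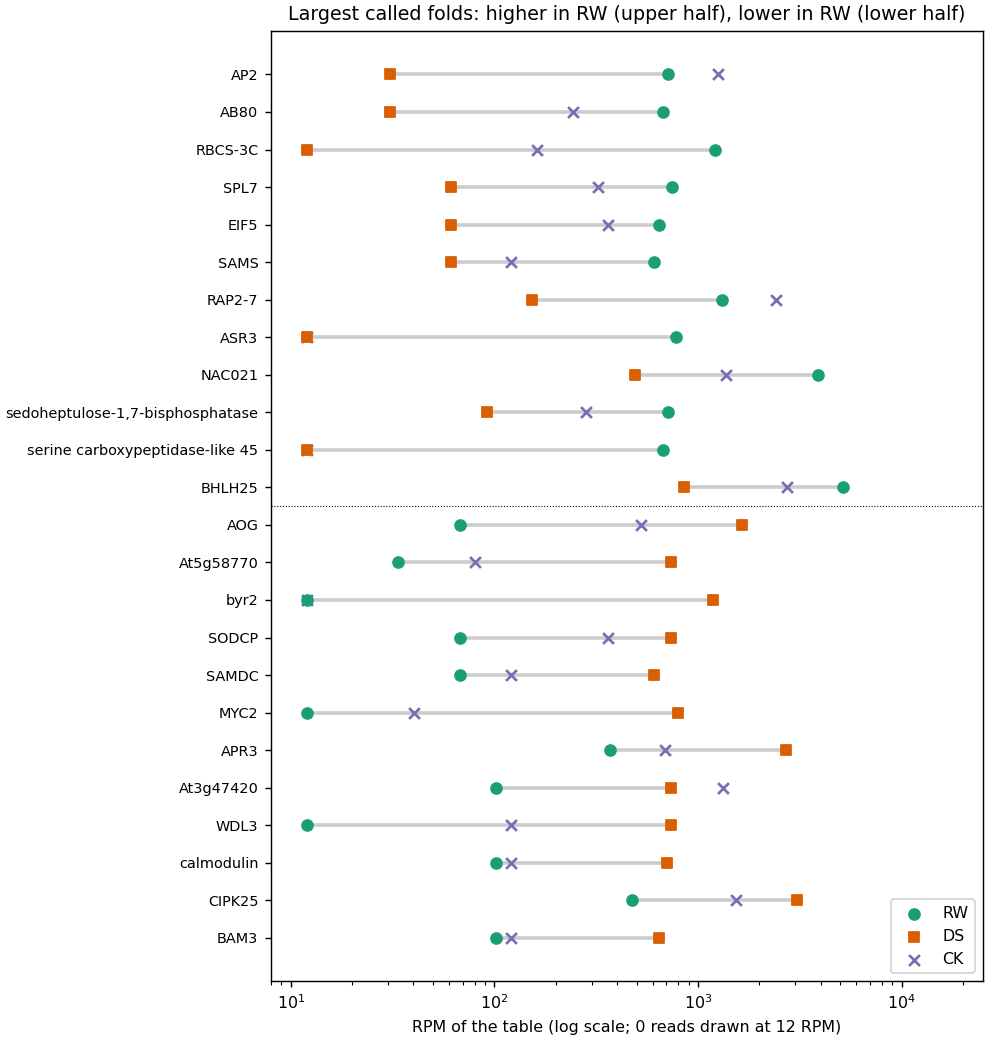
RPM of the table in RW, DS and CK on a log axis for the 12 named transcripts with the largest fold in each direction among those with at least 20 reads, with values of 0 drawn at 12 RPM. Those higher in RW, above the dotted line, have DS at the left end, and those lower in RW have DS at the right end except for At3g47420, where CK lies further right.

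Of 42 members of the ubiquitin list 6 were higher (14.3%) and 0 lower, AFB2 among them, with a median of 0.20. SINAT3, a ubiquitin ligase, had 22 reads in RW, 6 in DS and 2 in CK. CDC48, the ATPase that pulls proteins from complexes, had 22 in RW, 7 in DS and 13 in CK on TRINITY_DN22934_c0_g2 and 79 in RW, 41 in DS and 54 in CK on TRINITY_DN24705_c1_g1, the second call ending without scaling. UBI11, a polyubiquitin, had 106 in RW, 59 in DS and 52 in CK, just under 2-fold at 1.98 (1.43 to 2.78).

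Of 51 ribosomal proteins and translation factors 2 were higher and 0 lower. EIF5, which helps start codon choice, had 19 reads in RW, 2 in DS and 9 in CK, a ratio of 10.5 (2.53 to 92.9), with 6 of 6 entries higher. Of 64 RNA-binding, splicing and pentatricopeptide proteins 4 were higher and 2 lower. RBM39 had 40 reads in RW, 18 in DS and 18 in CK, and the splicing factor SRL1 had 6 in RW, 30 in DS and 7 in CK. These lists, with medians of 0.14 and -0.07, had called shares below the 16.4% of all transcripts.

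Chromatin and DNA proteins had 0 of 20 members called in either direction, and 2 of 14 immune receptors of the NBS-LRR class were lower, At4g11170 with 0 reads in RW, 10 in DS and 2 in CK and RGA3 with 3 in RW, 15 in DS and 9 in CK. Of 3 phloem transcripts, SEOB, a protein that plugs sieve elements, was higher on TRINITY_DN26009_c2_g2 with 16 reads in RW, 3 in DS and 139 in CK. On the other SEOB transcript, TRINITY_DN22893_c0_g1, which was not called, there were 8 reads in RW, 13 in DS and 100 in CK. On both, CK was far above RW and DS. The only retrotransposon compared, TY3B-G, had 17 reads in RW, 1 in DS and 24 in CK.

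With the entry of most reads alone, the calls of At1g60420, calmodulin, CRT3, the DnaJ homolog, BAM3, DPE2, SYP121, At5g58770, EIF5, RBM39 and SRL1 also ended. So did those of At2g30020, TRINITY_DN20323_c1_g1, PMA4, OSCPSM, CCT2 and CDC48 on TRINITY_DN24705_c1_g1. Median-of-ratios scaling ended the calls of LHCB4.1, TRINITY_DN20323_c1_g1, PMA4, OSCPSM and CCT2. Totals without the 10 deepest transcripts ended these 5 calls too, and those of ARF6 and CDC48 on TRINITY_DN24705_c1_g1. With identical entries counted once, the calls of RGA3, EXL5, At2g30020, LHCB4.1, At1g60420 and CCT2 ended. That of RGA3 also ended when the number of mapped reads was used for scaling.

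The small RNAs that the reads were listed with were compared by family. Of 126 families with at least 10 reads, 14 (11.1%) were called, 6 higher and 8 lower. Several rested on a transcript described above. Reads listed with miR2199 numbered 167 in RW, 46 in DS and 80 in CK, a ratio of 4.01 (2.88 to 5.69), and 0.829 (0.395 to 1.70) without BHLH25. Those with miR164 numbered 182 in RW, 87 in DS and 92 in CK, a ratio of 2.31 (1.78 to 3.02), and 1.07 (0.762 to 1.51) without NAC021. Those with miR2606 stood at 0.364 (0.316 to 0.418) and at 0.805 (0.662 to 0.978) without TRINITY_DN22811_c0_g2. Those with PC-3p-78936_58, over 61 transcripts, stood at 0.311 (0.279 to 0.346) and at 0.902 (0.663 to 1.22) without TRINITY_DN22811_c0_g2, RCA2 and TRINITY_DN25057_c1_g3, a leave-out chosen after seeing the data. The share of reads that miRNA-guided cuts produced was not tested.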

How the data were processed

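Poly(A) RNA of CK, DS and RW leaves was ligated to a 5′ adapter at its uncapped ends and sequenced single-end on an Illumina HiSeq instrument by the authors, who looked for cut sites on their Trinity assembly with ACGT101-DEG, a program built on CleaveLand4. The deposited normalized counts are RPM values, made by the authors with a sum of 1000000 over the listed entries in each library. Whole reads were recovered by dividing by the value of 1 read (33.8 RPM in RW, 30.6 in DS and 40.3 in CK), and 99.95% of values in RW, 100% in DS and 99.98% in CK came out whole within 0.01 of a read.

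Reads were summed per transcript over its entries. Entries of a transcript may share reads, which such sums count repeatedly. Transcripts with at least 10 reads over RW and DS were tested by a conditional binomial test (exact, two-sided) whose expectation was the ratio of table totals, with Benjamini-Hochberg adjustment over all 1045 (Python 3.11.15, scipy 1.17.1). Called transcripts had an adjusted p under 0.05 and at least 2-fold in RPM. Without molecular identifiers, intervals and the floor of 3 reads (101 RPM in RW, 91.7 in DS and 121 in CK) cover counting error only. On simulated data with 946 transcripts the test recovered 17.2% of 2-fold, 62.7% of 4-fold and 95.7% of 8-fold changes and called 0.931% of unchanged transcripts. The simulated reads held counting noise only, as the test assumes. These rates therefore do not cover differences between plants or libraries, or reads shared between entries. List medians use log2 with 1 read added.

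Named transcripts are, per direction, the 12 with the largest fold among those with at least 20 reads and a named protein, per list up to 4 called per direction and the 2 with the most reads, the 10 with the most reads of all, and the deepest member of each conserved miRNA target family. Members and lists were chosen with earlier results of these data known. Transcripts are called by their symbol, and for some the annotation names another member of the family. CIPK25 is annotated as CBL-interacting kinase 5, ERF4 as ethylene-responsive factor 9 and GRF4 as growth-regulating factor 5. UGT73C6 has no protein named in its annotation. Alternatives were other scalings, other read minimums and folds, entries in place of transcripts, and repeated entries counted once. GO and pathway terms and cleavage positions were not used here.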

Additional observations from a re-analysis of the deposited data

How the results depend on the processing

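No paired analysis was possible because each condition had 1 library, and for the same reason no replicate could be left out. Under the alternatives that used both criteria or the adjusted p alone, calls numbered between 126 and 205, against 94 higher and 77 lower together. With 2-fold alone as the criterion they numbered 437 (225 higher and 212 lower), a rule with no limit on counting error. Without scaling the median log2 ratio was -0.0704 against 0.0733, and 64 transcripts were higher and 90 lower (41.6% of calls higher, against 55.0%). Of these calls, 141 were kept without scaling, 165 with scaling to mapped reads, 155 with median-of-ratios scaling, 153 with totals that leave out the 10 deepest transcripts (chosen after seeing the data), 160 with identical entries counted once and 116 with the entry of most reads alone, where fewer reads per transcript were left. Lists with more higher than lower calls numbered 9 to 16, against 13. No named transcript that was called changed direction. Some that were not called lay close to even and crossed it without scaling, such as CPK32 with 71 reads in RW and 73 in DS. At this depth 5042 transcripts with 7200 RW and 6852 DS reads were too shallow to compare.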

Other observations

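Some groups outside the lists were gathered after their values had been seen and are given without a test of the group. Of all transcripts 9.00% were higher and 7.37% lower, but in groups picked this way a larger share can come from the choice alone. Of 7 heavy metal-associated isoprenylated plant proteins, small metal-binding proteins anchored by a lipid, 4 were higher (57.1%) and 0 lower. HIPP32 had 55 reads in RW, 25 in DS and 25 in CK, HIPP39 had 22 in RW, 7 in DS and 2 in CK on TRINITY_DN21120_c0_g1, HIPP07 had 11 in RW, 1 in DS and 4 in CK on TRINITY_DN20779_c0_g1 and HIPP26 had 10 in RW, 0 in DS and 1 in CK. The most deeply read member, HIPP05, was not called, with a ratio of 0.749. Of 4 serine carboxypeptidase-like transcripts, 2 were higher (50.0%) and both match member 45 of the family, with 20 reads in RW and 0 in DS and CK on TRINITY_DN14335_c2_g4 and with 12 in RW, 0 in DS and 10 in CK on SCPL45. CYP78A3 and CYP78A5, of a cytochrome P450 family that promotes organ growth in Arabidopsis, were both higher, with 18 reads in RW, 5 in DS and 8 in CK and with 13 in RW, 1 in DS and 4 in CK.

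Of 24 glycosyltransferases of all kinds, a group also gathered after its values had been seen, 6 were lower (25.0%) and 0 higher. Their median log2 ratio was -0.53. Among them AOG, UGT73C6, GmIF7GT1, UGT73B4 and GmSGT3 are described above, and UGT73B2 had 4 reads in RW, 17 in DS and 6 in CK. ART2, a symbol of the ribosomal DNA repeat in yeast, had 15 reads in RW, 55 in DS and 70 in CK. TRINITY_DN27212_c0_g1, which has no named protein, had 65 reads in RW and 0 in DS and CK, all listed with miR482. Of the 62 called transcripts in no list, 29 have no named protein.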
